A study of Rattus norvegicus with 8 samples.

Results

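The genes described here code for collagens, laminins, nidogens, fibronectin, fibulins, fibrillins, thrombospondins, syndecans, glypicans and integrins. They were chosen by a pattern on the gene symbol in the authors' deposited comparison table, which took 84 of its 13739 gene identifiers. The pattern itself reads no measured value, but it was chosen with earlier results of these data known. Polyadenylated RNA was sequenced from hippocampal neuronal cultures of wild-type rats (strain SD, tissue labelled brain) at DIV 18, that is, day 18 in vitro. In 4 libraries (PAM 1 to 4) the cultures had received a positive allosteric modulator (PAM) acting on NMDA receptors, and in 4 libraries (vehicle 1 to 4) they had received vehicle. Which compound was used, at what dose and for how long is not given in the sources used here. Whether the 4 libraries of a group stand for separate cultures is not given either, so p-values measure the spread between these libraries, which may be technical.

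The extracellular matrix is a mesh of secreted proteins around cells. Fibrillar collagens form cables, whereas collagen IV and laminins each build a sheet, the basement membrane, which nidogens tie together. Integrins and syndecans are the cell-surface receptors that hold cells to this mesh. In brain the collagen-rich matrix is found mainly in the meninges, the choroid plexus and the vessel walls, and glial cells make laminins and several of the smaller glycoproteins.

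Libraries held 2960406 to 4389430 counts, and members took 0.242% to 0.330% of them in PAM libraries and 0.226% to 0.259% in vehicle libraries. Of the 84 members, 60 passed the filter on low counts and were tested with edgeR among 11740 genes. The other 24 had 8 to 93 counts over all 8 libraries. Levels are given as CPM, counts scaled to library size, on TMM-scaled library sizes. Rose and fell are used for an edgeR quasi-likelihood test with a Benjamini-Hochberg adjusted p under 0.05 over all tested genes. A count of 0 allows 0.683 to 1.01 CPM on library sizes before TMM scaling (3 counts, counting error only).

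Of the 60 tested members, 17 rose with PAM (28.3%), against 9.00% of all tested genes, and 4 fell (6.67%), against 9.89%. The other 39 did not pass the test. The fitted log2 fold change was above 0 in 45 of 60 members, against 51.9% of all tested genes. Its median over tested members was 0.31, against 0.02 over all tested genes. Set against the vehicle mean as log2(CPM + 1), the member median was 0.379, 0.371, 0.228 and 0.249 in PAM 1 to 4 and 0.0765, 0.00220, -0.0267 and -0.0418 in vehicle 1 to 4. All 4 PAM libraries thus lay above all 4 vehicle libraries in that median, while the median over all tested genes was at most 0.0182 in any library. In 12 members every PAM library was above every vehicle library, against 10.3% of all tested genes. In 5 members every PAM library was below every vehicle library, against 12.0% of all tested genes. In the remaining 43 the groups overlapped.

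Summed by class, collagens reached 790 ± 128 CPM in PAM libraries and 583 ± 38.8 CPM in vehicle libraries (SD, n = 4 each), with PAM 4 just below vehicle 1. Laminins and nidogens summed to 329 ± 44.1 CPM in PAM libraries and 239 ± 21.1 CPM in vehicle libraries. Integrins summed to 388 ± 37.0 CPM in PAM libraries and 325 ± 17.7 CPM in vehicle libraries. Syndecans and glypicans differed by less than the spread between libraries, at 728 ± 31.8 CPM in PAM libraries and 723 ± 22.1 CPM in vehicle libraries. The secreted glycoproteins, from fibronectin to the thrombospondins, summed to 520 ± 70.1 CPM in PAM libraries and 456 ± 34.7 CPM in vehicle libraries, with overlapping groups.

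**Figure D1:**
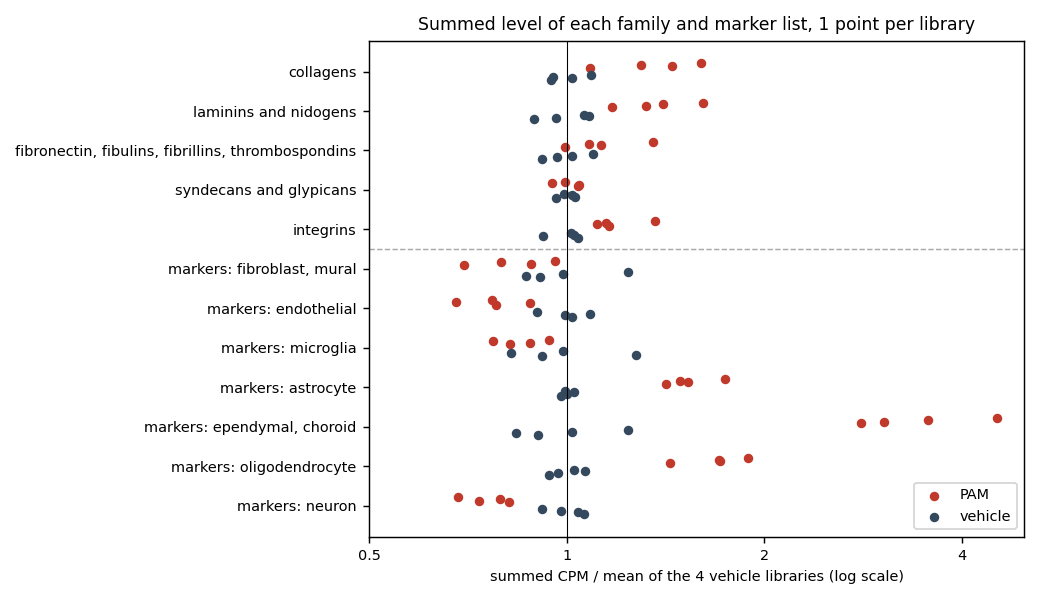
Summed CPM of the member classes and of the cell type marker lists in each library, divided by the mean of the vehicle libraries and drawn on a log axis, with PAM points above vehicle points in each row. Collagens stood at 632 to 933 CPM in PAM libraries and 551 to 634 CPM in vehicle libraries, and the syndecan and glypican sums of both groups overlapped.

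Other cell types of such cultures differed between the groups as well. For the counts of markers below, the shares over all tested genes were 9.00% that rose and 9.89% that fell. Summed astrocyte markers were 9555 to 11722 CPM in PAM libraries and 6595 to 6918 CPM in vehicle libraries, and 6 of 12 tested markers rose. Ependymal and choroid plexus markers summed to 264 to 426 CPM in PAM libraries and 78.9 to 117 CPM in vehicle libraries, and 10 of 10 rose. They were Ak7, Ccdc153, Cfap126, Dnah11, Dynlrb2, Folr1, Rsph1, Tekt1, Tekt4 and Tmem212. Tekt4 lost its call in 7 of the 8 fits without 1 library (edgeR adjusted p up to 0.124). The list joins ependyma and choroid plexus, and this count does not tell them apart. Oligodendrocyte markers summed to 1479 to 1948 CPM in PAM libraries and 967 to 1097 CPM in vehicle libraries, with 7 of 12 higher and 1 lower. Markers of fibroblasts and mural cells, the usual makers of fibrillar collagen, summed to 362 to 498 CPM in PAM libraries and 449 to 643 CPM in vehicle libraries, and of 8 tested none rose and 1 fell. Pdgfra, which is not specific to these cells, was the 1 that fell (edgeR adjusted p = 0.0240). Its call was lost without PAM 1, PAM 3, vehicle 1 or vehicle 2. It was also lost without PAM 3 and PAM 4 together (edgeR adjusted p up to 0.0938 over the 17 alternatives). Tagln (213 ± 51.6 CPM in PAM libraries and 262 ± 71.6 CPM in vehicle libraries) and Pdgfra (61.2 ± 15.9 CPM in PAM libraries and 90.1 ± 11.5 CPM in vehicle libraries) made up most of the difference in sums. The untested low markers Foxc1 and Slc6a13 went the other way, each with every PAM library above every vehicle library, at 2.10 ± 1.28 and 2.46 ± 0.683 CPM in PAM libraries and 0.388 ± 0.382 and 1.20 ± 0.496 CPM in vehicle libraries. Endothelial markers summed to 285 to 371 CPM in PAM libraries and 380 to 458 CPM in vehicle libraries, with 1 of 3 higher and 1 lower. Most of that sum was the glucose transporter gene Slc2a1, which is not specific to endothelium, at 298 ± 36.0 CPM in PAM libraries and 401 ± 34.4 CPM in vehicle libraries (SD, n = 4 each). The endothelial receptor gene Kdr went the other way, at 16.6 ± 4.50 CPM in PAM libraries and 8.69 ± 2.62 CPM in vehicle libraries, with no overlap between groups. The call of Kdr (edgeR adjusted p = 0.0302) was lost without PAM 2, vehicle 2 or vehicle 3 (up to 0.103). That of Slc2a1 (edgeR adjusted p = 0.0106) was lost without vehicle 2 (0.0581). Microglial markers summed to 88.3 to 107 CPM in PAM libraries and 94.1 to 146 CPM in vehicle libraries, and none of 5 passed the test. Neuronal markers, which the label of the cultures calls for, summed to 4827 to 5774 CPM in PAM libraries and 6484 to 7498 CPM in vehicle libraries, with 8 of 15 lower and none higher. Only markers with a symbol in the authors' deposited table could be looked up. These were 5 of 15 listed for endothelium, 15 of 20 for fibroblasts and mural cells, 12 of 17 for ependyma and choroid plexus and 11 of 15 for microglia. No marker with a symbol was at 0 in every library, and whether those without a symbol were detected is not known. The part of these cell types in the results on matrix genes was not tested, and in bulk RNA fewer cells of a type and less RNA per cell cannot be told apart.

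For the counts by class from here on, the shares over all tested genes were 9.00% that rose and 9.89% that fell. Fibrillar collagens, the cable-forming group, had 8 tested members of 9, and 3 rose and none fell with PAM. Col1a1 (ENSRNOG00000003897, chromosome 10, 82745801 to 82762789 on the plus strand, Rnor_6.0) codes for a chain of collagen I, the main collagen of meninges and connective tissue. Col1a1 was at 97.0, 40.3, 75.0 and 33.9 CPM in PAM 1 to 4 and at 23.5, 14.6, 25.98 and 10.4 CPM in vehicle 1 to 4. Each PAM library was above each vehicle library, with PAM 1 and PAM 3 the highest. Col1a1 rose 3.32-fold (log2 1.73 ± 0.33 SE, edgeR adjusted p = 0.00213). Col3a1, the chain of collagen III, was at 54.4, 17.1, 42.2 and 23.4 CPM in PAM 1 to 4 and at 15.2, 4.13, 18.2 and 7.76 CPM in vehicle 1 to 4. Its groups overlapped, since PAM 2 lay below vehicle 3, and it rose by 1.61 ± 0.41 on the log2 scale (edgeR adjusted p = 0.0134). Without PAM 3 and PAM 4 the call of Col3a1 was lost (edgeR adjusted p = 0.167, range 7.73e-07 to 0.167 over the 17 alternatives).

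Col11a1, a chain of collagen XI that seeds thin fibrils, was at 50.5, 49.7, 33.4 and 22.4 CPM in PAM 1 to 4 and at 27.7, 23.1, 14.4 and 14.6 CPM in vehicle 1 to 4. PAM 4 lay below 2 vehicle libraries. It rose by 0.98 ± 0.26 on the log2 scale (edgeR adjusted p = 0.0133), and the call was lost without vehicle 3 or vehicle 4 (edgeR adjusted p 0.000550 to 0.0566 over the 8 fits without 1 library). The 5 other tested fibrillar genes did not pass. Among them Col5a2, which shares fibrils with collagen I, differed by 0.41 ± 0.20 (edgeR adjusted p = 0.170) and Col5a1 by -0.45 ± 0.21 (edgeR adjusted p = 0.140). Col3a1 and Col5a2 lie tail to tail on chromosome 9 with 33293 bases between them.

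Network-forming collagens, which build sheets, had 4 tested members of 8, of which 3 rose and 1 fell. Col4a1 and Col4a2 code for the chains that make the common collagen IV molecule, 2 copies of the Col4a1 chain with 1 of the Col4a2 chain. Both genes lie on chromosome 16. They start head to head and share a promoter region, and their start windows are printed because the pair moved in opposite directions. The windows run from 250 bases before to 50 bases after each RefSeq start on GRCr8, 5′ to 3′ on each gene's own strand. Col4a1 is on the plus strand (chr16:84885347-84885646) and Col4a2 on the minus strand (chr16:84885471-84885770). The starts are 77 bases apart. Capitals mark the 176 bases that lie in both windows, which are reverse complements of each other.
Col4a1: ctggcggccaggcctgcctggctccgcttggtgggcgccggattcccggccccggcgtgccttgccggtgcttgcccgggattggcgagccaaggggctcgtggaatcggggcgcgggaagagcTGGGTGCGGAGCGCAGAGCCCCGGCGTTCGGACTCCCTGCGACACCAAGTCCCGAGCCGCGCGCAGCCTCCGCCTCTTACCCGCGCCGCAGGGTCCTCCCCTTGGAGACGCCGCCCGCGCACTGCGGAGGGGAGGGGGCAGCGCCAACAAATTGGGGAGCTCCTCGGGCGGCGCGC
Col4a2: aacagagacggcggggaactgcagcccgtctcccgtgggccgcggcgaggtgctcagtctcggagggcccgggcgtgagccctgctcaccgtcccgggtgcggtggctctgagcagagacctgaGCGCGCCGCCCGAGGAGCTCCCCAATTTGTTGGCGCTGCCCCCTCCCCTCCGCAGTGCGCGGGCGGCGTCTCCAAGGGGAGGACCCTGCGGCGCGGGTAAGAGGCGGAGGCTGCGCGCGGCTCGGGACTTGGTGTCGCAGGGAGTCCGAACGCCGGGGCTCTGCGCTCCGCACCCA
Each window held 2 copies of the GC box GGGCGG on either strand and none of TATAAA. The CCAAT box occurred 2 times in the Col4a1 window and 1 time in the Col4a2 window.

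Col4a1 (ENSRNOG00000016281, 83522162 to 83632153, plus strand, Rnor_6.0) was at 89.7, 81.2, 77.5 and 71.0 CPM in PAM 1 to 4 and at 49.4, 52.0, 61.0 and 47.6 CPM in vehicle 1 to 4. Every PAM library was above every vehicle library. Col4a1 rose 1.52-fold (log2 0.61 ± 0.13 SE, edgeR adjusted p = 0.00317). Col4a2 (ENSRNOG00000023972, 83387364 to 83438561, minus strand, Rnor_6.0) was at 64.8, 58.9, 63.2 and 30.6 CPM in PAM 1 to 4 and at 84.1, 81.8, 82.7 and 81.5 CPM in vehicle 1 to 4. Every PAM library was below every vehicle library, PAM 4 was the lowest, and the vehicle libraries lay within an SD of 1.19 CPM. Col4a2 fell by 0.59 ± 0.17 on the log2 scale (edgeR adjusted p = 0.0229), and by 0.41 without PAM 4. Its call was lost without any 1 of the 4 vehicle libraries (edgeR adjusted p = 0.0616, 0.0617, 0.0542 and 0.0563 without vehicle 1 to 4, range 0.0199 to 0.0617 over the 8 fits without 1 library).

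The ratio of Col4a1 to Col4a2 CPM was 1.38, 1.38, 1.23 and 2.32 in PAM 1 to 4 and 0.587, 0.636, 0.739 and 0.583 in vehicle 1 to 4. In CPM, which are not corrected for length, the Col4a1 value was the larger of the pair in every PAM library and the smaller in every vehicle library. Per kilobase of exon this order did not hold in PAM 3, where Col4a1 was at 11.8 CPM and Col4a2 at 12.8 CPM. On the log2 scale the ratio averaged 0.61 ± 0.41 in PAM libraries and -0.66 ± 0.16 in vehicle libraries (SD, n = 4 each), a difference of 1.27 (two-sided exact permutation p = 0.0286, the smallest that 4 against 4 allows; 0.0571 after Benjamini-Hochberg adjustment over 4 chain ratios). The pairs for these ratios were chosen after their values were seen, so the p-values of the 4 ratios are no independent tests. For Col4a1 and Col4a2 the outcome was also fixed in advance. The chains separated the groups in opposite directions, so their ratio had to separate them too. Per kilobase of exon, Col4a1 was at 12.1 CPM in PAM libraries and 7.98 CPM in vehicle libraries, and Col4a2 at 11.01 CPM in PAM libraries and 16.7 CPM in vehicle libraries. In the count files' gene models on Rnor_6.0 the starts of the pair lie 83600 bases apart, against 77 on GRCr8. The exons of the Rnor_6.0 and GRCr8 models were not compared.

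**Figure D2:**
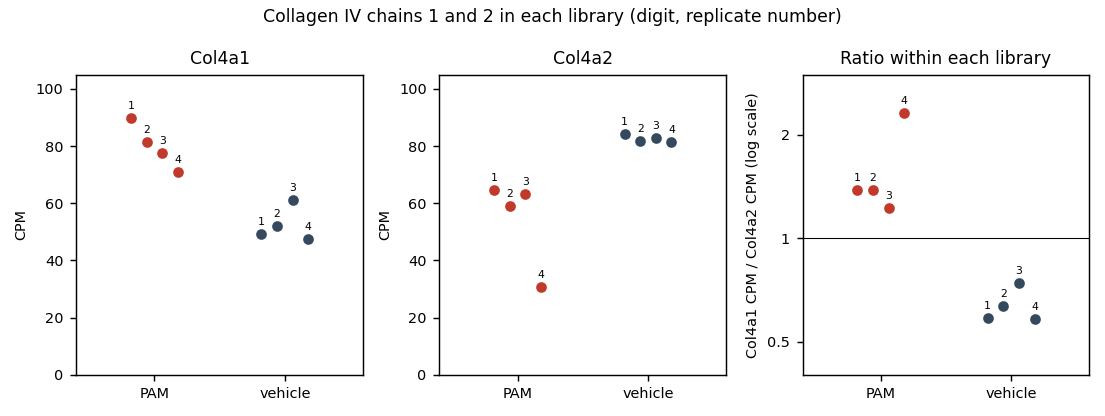
CPM of Col4a1 and Col4a2 and, on a log axis, their ratio in each library, PAM left of vehicle, with digits for replicate numbers. The ratio lay between 1.23 and 2.32 in PAM libraries and between 0.583 and 0.739 in vehicle libraries.

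Col8a2, a chain of the short-chain network collagen VIII, was at 17.1, 4.05, 9.04 and 6.85 CPM in PAM 1 to 4 and at 3.96, 1.38, 1.57 and 2.26 CPM in vehicle 1 to 4. The groups did not overlap, and PAM 1 was by far the highest. Col8a2 rose 4.02-fold (log2 2.01 ± 0.49 SE, edgeR adjusted p = 0.00744), and its call was lost without PAM 1 (edgeR adjusted p 0.00178 to 0.0606 over the 8 fits without 1 library). Its partner chain Col8a1 was below the filter, with 28, 34, 6 and 5 counts in PAM 1 to 4 and 1, 0, 0 and 2 counts in vehicle 1 to 4. Without the filter Col8a1 passed the edgeR test (adjusted p = 5.63e-05, where 6.50% of all genes were called higher and 6.49% lower), and so it did in DESeq2 (adjusted p = 0.00135, where 8.42% were called higher and 9.09% lower). The authors' deposited table gives it an adjusted p of 0.000878.

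Col4a5, a collagen IV chain of kidney, eye and brain basement membranes, was at 60.6, 56.7, 36.1 and 25.96 CPM in PAM 1 to 4 and at 28.4, 25.05, 23.8 and 27.8 CPM in vehicle 1 to 4. PAM 4 lay inside the vehicle range. It rose by 0.79 ± 0.22 on the log2 scale (edgeR adjusted p = 0.0180), a call lost without PAM 1, vehicle 2 or vehicle 3 (edgeR adjusted p 0.000488 to 0.0805 over the 8 fits without 1 library). Col4a3, Col4a4 and Col4a6 were below the filter.

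Col18a1 codes for a basement membrane collagen that carries heparan sulfate and whose end fragment is endostatin. Col18a1 (ENSRNOG00000001229, chromosome 20, 12225202 to 12332858, plus strand, Rnor_6.0) was at 49.3, 23.9, 40.0 and 18.7 CPM in PAM 1 to 4 and at 8.54, 7.71, 11.9 and 9.71 CPM in vehicle 1 to 4. All PAM libraries lay above all vehicle libraries. Col18a1 rose 3.51-fold (log2 1.81 ± 0.29 SE, edgeR adjusted p = 0.000204), and its call held without any 1 library.

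Collagen VI forms beaded filaments from 3 chains, and 2 of the chains rose. Col6a1 (ENSRNOG00000001249, chromosome 20, 12658065 to 12675561, plus strand, Rnor_6.0) was at 40.3, 37.5, 35.0 and 16.2 CPM in PAM 1 to 4 and at 13.4, 15.7, 10.02 and 13.9 CPM in vehicle 1 to 4. The groups did not overlap, although PAM 4 lay close to vehicle 2. Col6a1 rose 2.45-fold (log2 1.29 ± 0.26 SE, edgeR adjusted p = 0.00145). Col6a2, its neighbour on the same strand 97865 bases away, was at 112, 106, 107 and 82.6 CPM in PAM 1 to 4 and at 85.1, 57.0, 68.9 and 61.8 CPM in vehicle 1 to 4. PAM 4 was below vehicle 1, and Col6a2 rose by 0.59 ± 0.14 on the log2 scale (edgeR adjusted p = 0.00638). Col6a3, the largest chain, differed by -0.13 ± 0.24 (edgeR adjusted p = 0.761). The log2 ratio of Col6a1 to Col6a2 differed by 0.63 between groups (two-sided exact permutation p = 0.0857, adjusted over 4 ratios 0.114).

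FACIT collagens, which decorate fibrils, had 4 tested members of 7, and none passed the test. Col16a1 was the highest of them per kilobase, at 25.2 CPM in PAM libraries and 23.9 CPM in vehicle libraries, with a log2 difference of 0.07 ± 0.12 (edgeR adjusted p = 0.738). Col20a1 differed by 0.08 ± 0.29 (edgeR adjusted p = 0.886). The transmembrane collagens Col17a1 and Col25a1 were below the filter, with 16 and 30 counts over all libraries.

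**Figure D3:**
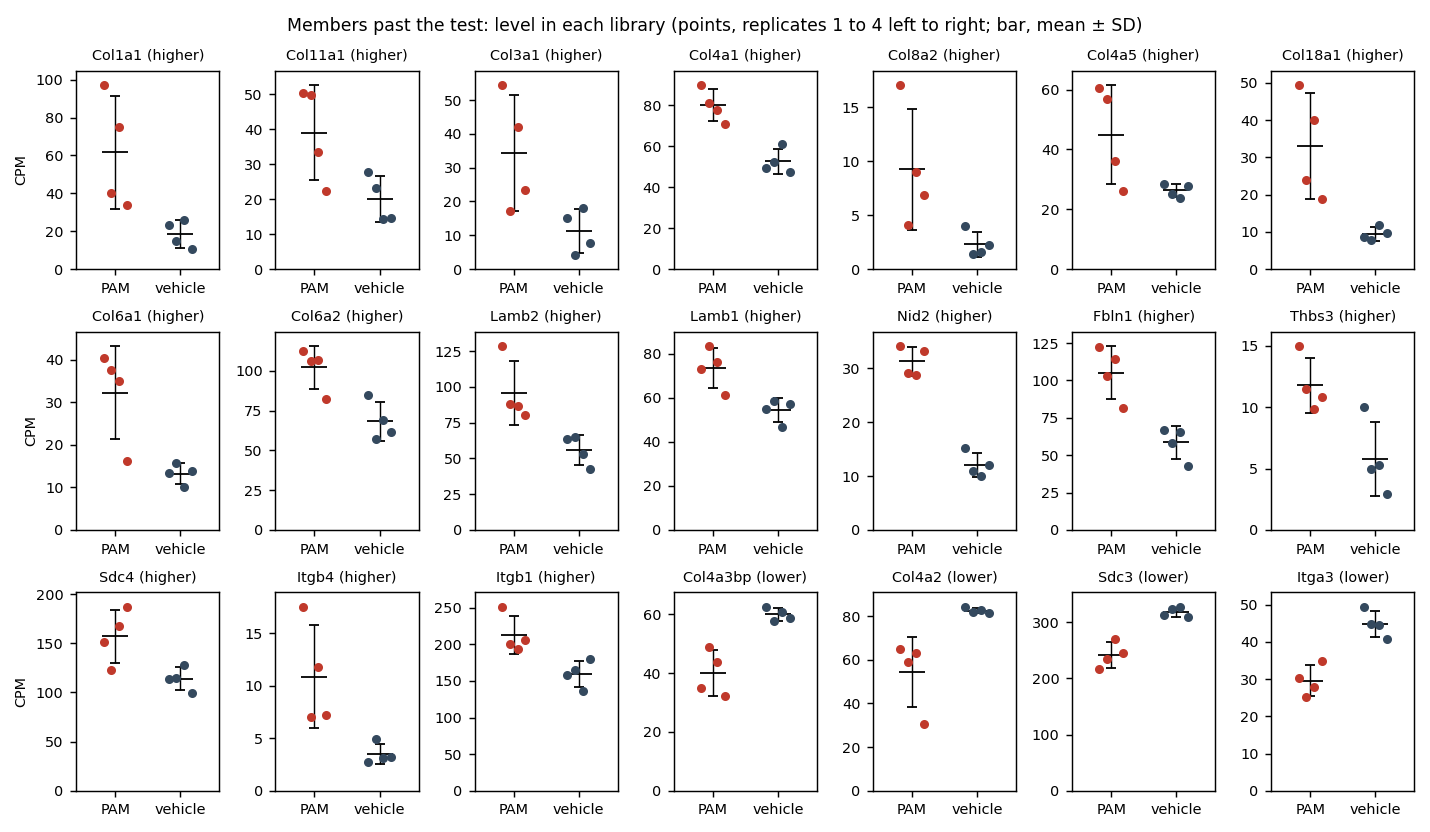
CPM in each library of the members that passed the edgeR test, PAM left of vehicle, each gene on its own axis starting at 0, with bars for the group mean and SD. Col1a1, Col18a1 and Nid2 have no overlap between groups, whereas PAM 4 lies within the vehicle range for Col4a5.

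Laminins are cross-shaped molecules of an alpha, a beta and a gamma chain. Here 2 beta chains rose, while none of the 3 tested alpha chains (of 5) and no gamma chain passed the test. Lamb2 (ENSRNOG00000047768, chromosome 8, 117268337 to 117280517, plus strand, Rnor_6.0), the beta chain of synaptic and vascular laminins, was at 128, 87.6, 86.2 and 80.4 CPM in PAM 1 to 4 and at 63.7, 64.7, 52.9 and 42.7 CPM in vehicle 1 to 4. PAM 1 stood apart from the other PAM libraries, and all PAM libraries were above all vehicle libraries. Lamb2 rose 1.71-fold (log2 0.77 ± 0.16 SE, edgeR adjusted p = 0.00260). Lamb1 was at 73.1, 83.4, 76.4 and 61.3 CPM in PAM 1 to 4 and at 54.9, 58.6, 46.6 and 57.3 CPM in vehicle 1 to 4. Its groups did not overlap, and it rose by 0.44 ± 0.14 on the log2 scale (edgeR adjusted p = 0.0299). That call was lost without any 1 library other than PAM 4 (edgeR adjusted p 0.00715 to 0.107 over the 8 fits without 1 library).

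Lamc1, the gamma chain of most laminins, was at 39.9, 39.2, 37.5 and 19.5 CPM in PAM 1 to 4 and at 25.9, 28.1, 20.98 and 25.2 CPM in vehicle 1 to 4. PAM 1 to 3 were above all vehicle libraries and PAM 4 was below all of them. Over all libraries Lamc1 differed by 0.45 ± 0.21 on the log2 scale (edgeR adjusted p = 0.147). Without PAM 4 the difference was 0.63 and passed (edgeR adjusted p = 0.0101, range 0.00713 to 0.312 over the 17 alternatives). Of the alpha chains, Lama5, common in vessel basement membranes, differed by 0.02 ± 0.15 (edgeR adjusted p = 0.939) and Lama4 by -0.12 ± 0.56 (edgeR adjusted p = 0.911). Lama1 and Lama2 were below the filter. Lama1 had 14, 11, 12 and 9 counts in PAM 1 to 4 and 4, 6, 6 and 3 in vehicle 1 to 4, with no overlap in CPM. Lama2 had 26, 16, 11 and 4 counts in PAM 1 to 4 and 6, 3, 4 and 7 in vehicle 1 to 4.

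Nidogens link the laminin sheet to collagen IV. Nid2 (ENSRNOG00000000341, chromosome 15, 4894213 to 4951917, minus strand, Rnor_6.0) was at 34.1, 29.2, 28.7 and 33.2 CPM in PAM 1 to 4 and at 15.2, 11.01, 10.02 and 11.97 CPM in vehicle 1 to 4. The groups were far apart and each varied little. Nid2 rose 2.59-fold (log2 1.37 ± 0.20 SE, edgeR adjusted p = 0.000113), the smallest adjusted p of all members. Nid1 was at 23.97, 23.03, 17.5 and 8.65 CPM in PAM 1 to 4 and at 23.2, 19.8, 22.5 and 22.6 CPM in vehicle 1 to 4. Only PAM 3 and PAM 4 lay below the vehicle range, and the log2 difference was -0.24 ± 0.25 (edgeR adjusted p = 0.554). The Nid2 to Nid1 ratio was 1.42, 1.27, 1.64 and 3.83 in PAM 1 to 4 and 0.658, 0.556, 0.444 and 0.529 in vehicle 1 to 4, a log2 difference of 1.76 (two-sided exact permutation p = 0.0286, the smallest possible; adjusted over 4 ratios 0.0571). As for the collagen IV pair, PAM 4 had the highest ratio. The fourth ratio, Lamb2 to Lamb1, differed by 0.33 (two-sided exact permutation p = 0.257).

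Among the secreted glycoproteins from fibronectin to the thrombospondins, 2 of 7 tested members rose and none fell. Fn1, fibronectin, the main integrin ligand of early matrix, was at 194, 145, 160 and 138 CPM in PAM 1 to 4 and at 189, 186, 163 and 146 CPM in vehicle 1 to 4. The groups overlapped, with a log2 difference of -0.10 ± 0.12 (edgeR adjusted p = 0.624). Fbln1 (ENSRNOG00000014137, chromosome 7, 126096793 to 126176468, plus strand, Rnor_6.0), a fibulin that binds fibronectin and laminin, was at 122, 103, 114 and 81.5 CPM in PAM 1 to 4 and at 67.1, 58.4, 65.4 and 43.0 CPM in vehicle 1 to 4. All PAM libraries were above all vehicle libraries, and PAM 4 and vehicle 4 were the lowest of their groups. Fbln1 rose 1.80-fold (log2 0.85 ± 0.15 SE, edgeR adjusted p = 0.000681). Fbln2, per kilobase the highest of the fibulins at 44.9 CPM in PAM libraries and 42.0 CPM in vehicle libraries, differed by 0.10 ± 0.10 on the log2 scale (edgeR adjusted p = 0.563). Fbn1, the fibrillin of microfibrils, differed by 0.32 ± 0.33 (edgeR adjusted p = 0.553).

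Thrombospondins are astrocyte-derived in brain and are known to promote synapse formation. Thbs3 was at 14.98, 11.5, 9.86 and 10.8 CPM in PAM 1 to 4 and at 10.1, 4.95, 5.32 and 2.91 CPM in vehicle 1 to 4. PAM 3 lay just below vehicle 1. Thbs3 rose by 1.02 ± 0.35 on the log2 scale (edgeR adjusted p = 0.0483), close to the threshold: the call was lost without PAM 1, 2 or 3 or vehicle 2, 3 or 4 (edgeR adjusted p 0.0120 to 0.153 over the 8 fits without 1 library) and with a minimum mean of 1 CPM (0.0518). Thbs2 differed by 0.96 ± 0.39 (edgeR adjusted p = 0.0994) and passed without PAM 3 (0.0395, range 0.0191 to 0.235 over the 17 alternatives). Thbs1 was below the filter, with 56, 18, 3 and 7 counts in PAM 1 to 4 and 2, 3, 3 and 1 counts in vehicle 1 to 4. PAM 1 holds most of these counts. Thbs1 passed without the filter (edgeR adjusted p = 0.000494) and has an adjusted p of 0.00493 in the authors' deposited table. Thbs4 also stayed below the filter.

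Syndecans and glypicans are cell-surface carriers of heparan sulfate, which holds growth factors at the membrane. All 9 were tested, and 1 rose and 1 fell, which is near the shares over all tested genes (9.00% and 9.89%). Sdc3 (ENSRNOG00000011927, chromosome 5, 148923098 to 148956404, plus strand, Rnor_6.0), the neuronal syndecan, was at 217, 235, 271 and 245 CPM in PAM 1 to 4 and at 312, 323, 327 and 310 CPM in vehicle 1 to 4. Every PAM library was below every vehicle library. Sdc3 fell by 0.39 ± 0.10 on the log2 scale (edgeR adjusted p = 0.00999), and the call was lost once each library's trend with exonic length was removed (edgeR adjusted p = 0.0645, range 0.000119 to 0.0645 over the 17 alternatives). Sdc4, a syndecan of focal adhesions, was at 151, 123, 168 and 187 CPM in PAM 1 to 4 and at 114, 115, 127 and 99.0 CPM in vehicle 1 to 4. PAM 2 lay below vehicle 3. Sdc4 rose by 0.46 ± 0.13 (edgeR adjusted p = 0.0180), a call lost without PAM 3, vehicle 2 or vehicle 4 (edgeR adjusted p 0.00196 to 0.0839 over the 8 fits without 1 library) and without PAM 3 and PAM 4 together (0.0808, log2 0.28). Per kilobase, Sdc4 was at 63.1 CPM in PAM libraries and 45.7 CPM in vehicle libraries, and Sdc3 at 49.99 CPM in PAM libraries and 65.7 CPM in vehicle libraries, so the order of the pair differed between groups.

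Sdc2, the syndecan of dendritic spines, differed by 0.31 ± 0.14 (edgeR adjusted p = 0.123). None of the 5 glypicans passed the test. Gpc1 was the highest of them per kilobase, at 54.8 CPM in PAM libraries and 48.4 CPM in vehicle libraries, and differed by 0.18 ± 0.11 on the log2 scale (edgeR adjusted p = 0.257). Gpc4, an astrocyte-secreted factor that recruits AMPA receptors to synapses, was at 23.05, 21.3, 26.8 and 9.37 CPM in PAM 1 to 4 and at 22.3, 18.4, 20.7 and 17.1 CPM in vehicle 1 to 4. PAM 4 was the lowest library, and the log2 difference was 0.05 ± 0.26 (edgeR adjusted p = 0.909). In Gpc3 every PAM library was above every vehicle library, with a log2 difference of 0.66 ± 0.33 (edgeR adjusted p = 0.178).

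Integrins pair an alpha with a beta subunit to bind the matrix. Of 11 tested members of 17, 2 beta subunits rose and 1 alpha subunit fell. Itgb1, the beta subunit shared by most laminin, collagen and fibronectin receptors, was at 251, 200, 194 and 206 CPM in PAM 1 to 4 and at 158, 164, 136 and 180 CPM in vehicle 1 to 4. The groups did not overlap. Itgb1 rose 1.33-fold (log2 0.42 ± 0.12 SE, edgeR adjusted p = 0.0177), and the call was lost without PAM 1 or vehicle 3 (edgeR adjusted p 0.0110 to 0.0826 over the 8 fits without 1 library). Itgb4 (ENSRNOG00000005580, chromosome 10, 104523996 to 104561078, plus strand, Rnor_6.0), which pairs with alpha 6 in a laminin receptor, was at 17.5, 7.04, 11.8 and 7.21 CPM in PAM 1 to 4 and at 2.74, 4.95, 3.13 and 3.24 CPM in vehicle 1 to 4. The groups did not overlap, and Itgb4 rose 3.08-fold (log2 1.62 ± 0.39 SE, edgeR adjusted p = 0.00626). Its exons share 523 bases with Galk1 on the opposite strand, and the strandedness of counting is not given in the sources used here. Galk1 differed the other way, by -0.30 ± 0.14 on the log2 scale (edgeR adjusted p = 0.158). Itga6, the partner of Itgb4, differed by 0.13 ± 0.15 (edgeR adjusted p = 0.600).

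Itga3 (ENSRNOG00000004276, chromosome 10, 82855613 to 82887497, minus strand, Rnor_6.0), the alpha subunit of a laminin receptor found on neurons, was at 30.4, 25.2, 27.9 and 35.0 CPM in PAM 1 to 4 and at 49.4, 44.9, 44.5 and 40.8 CPM in vehicle 1 to 4. Every PAM library was below every vehicle library. Itga3 fell by 0.61 ± 0.16 on the log2 scale (edgeR adjusted p = 0.0121), and its call held without any 1 library. It lies tail to tail with Col1a1, which rose, with 92823 bases between them. Itgb5 differed by 0.29 ± 0.20 (edgeR adjusted p = 0.338). The leukocyte subunit Itgb2 was below the filter, with 17 counts over all libraries.

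The symbol pattern also took 4 proteins that are neither matrix nor receptor chains or only resemble them (Col4a3bp, Itgb1bp1, Itgb3bp and Itgbl1), of which 1 changed. Col4a3bp, a ceramide transfer protein, was at 35.0, 49.0, 43.8 and 32.1 CPM in PAM 1 to 4 and at 62.5, 57.8, 60.7 and 58.9 CPM in vehicle 1 to 4. The groups did not overlap, and Col4a3bp fell by 0.58 ± 0.15 on the log2 scale (edgeR adjusted p = 0.0123). Without these 4 genes, 17 of 56 tested members rose and 3 fell. In Itgbl1 every PAM library was below every vehicle library, with a log2 difference of -0.88 ± 0.34 (edgeR adjusted p = 0.0772).

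**Figure D4:**
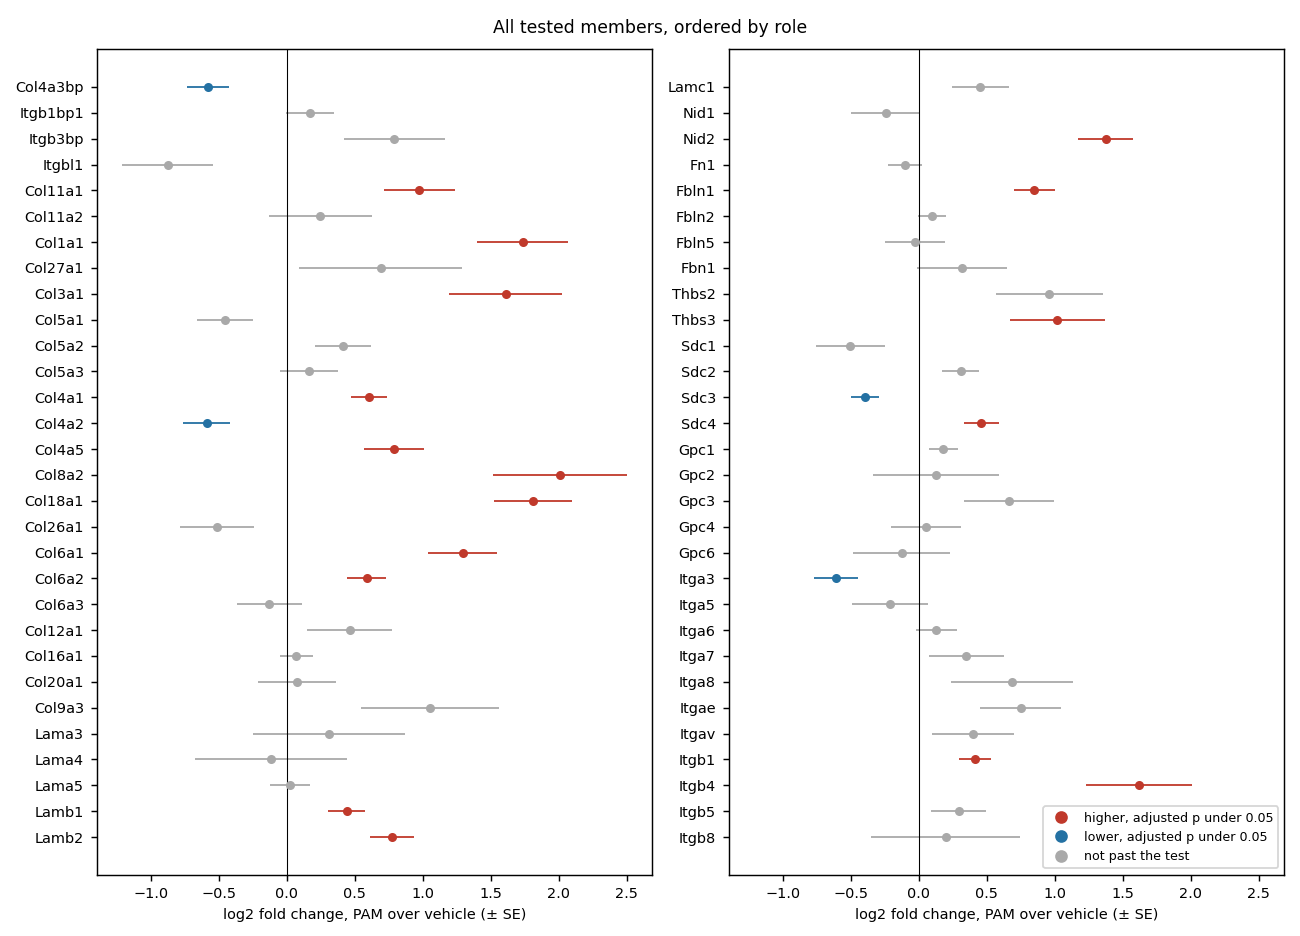
Fitted log2 fold change (PAM over vehicle) of the 60 tested members by class, with bars of 1 SE, red and blue points for members higher and lower past the edgeR test, and grey points for the rest. Collagens spread from -0.59 (Col4a2) to 2.01 (Col8a2), while no glypican passed the test.

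Start windows of 64 of the 84 members were found in the RefSeq promoter table (GRCr8), among them 10 of the 17 that rose and 4 of the 4 that fell. The GC box GGGCGG, searched on both strands, occurred in 41 of the 64 windows (64.1%), against 33.1% of all 33469 windows, and in 9 of the 10 of members that rose. CCAAT occurred in 29.7% of member windows and 37.5% of all windows. TATAAA occurred in 3.13% of member windows and 14.2% of all windows. The AP-1 element TGANTCA, read by the Fos and Jun factors of active neurons, occurred in 3.13% of member windows and 7.33% of all windows, and Col6a1 was the only member that rose among those holding it. None of these motifs contains another. All windows include those of genes not tested here, and shares among tested genes were not counted. Whether these shares are particular to the members therefore cannot be read from them.

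Genes that process, cross-link or sense the matrix were followed in 7 further lists, which the symbol pattern does not cover. Enzymes that mature collagen moved in both directions: 4 of 19 tested rose and 3 fell, with a median log2 fold change of 0.05 against 0.02 over all tested genes, of which 9.00% rose and 9.89% fell. Without 1 library 0 to 5 rose and 1 to 4 fell. Of the 4 that rose, Bmp1 lost its call in 6 and P3h1 in 5 of the 8 fits without 1 library (edgeR adjusted p up to 0.165 and 0.128). P4ha2, a prolyl hydroxylase subunit needed for a stable triple helix, was at 32.7, 27.7, 34.0 and 55.9 CPM in PAM 1 to 4 and at 69.2, 74.3, 76.4 and 68.9 CPM in vehicle 1 to 4. It fell by 0.96 ± 0.18 on the log2 scale (edgeR adjusted p = 0.000901), with every PAM library below every vehicle library. P4ha1, its sister subunit, fell by 0.64 ± 0.19 (edgeR adjusted p = 0.0236), a call lost without PAM 3, vehicle 1 or vehicle 4 and without PAM 3 and PAM 4 together (edgeR adjusted p up to 0.0928 over the 17 alternatives). Loxl3, a lysyl oxidase that cross-links collagen, rose by 0.88 ± 0.24 (edgeR adjusted p = 0.0141), a call lost without PAM 1 or PAM 3 (up to 0.0638). Crtap, a part of the collagen prolyl 3-hydroxylation complex, rose by 0.74 ± 0.21 (edgeR adjusted p = 0.0167), a call lost without PAM 1 or vehicle 2 (up to 0.0863).

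Of the matricellular proteins, which sit in the matrix without building it, 3 of 15 tested rose and 1 fell, against 9.00% and 9.89% of all tested genes, with a median of 0.22. Without 1 library 1 to 5 rose and 0 to 2 fell. Mgp, matrix Gla protein, an inhibitor of calcification, was at 222, 152, 205 and 179 CPM in PAM 1 to 4 and at 91.8, 80.4, 71.4 and 83.5 CPM in vehicle 1 to 4. It rose by 1.21 ± 0.13 on the log2 scale (edgeR adjusted p = 6.38e-06), with no overlap between groups. Sparcl1, the astrocyte protein hevin, rose by 0.40 ± 0.12 (edgeR adjusted p = 0.0304), a call lost without PAM 1, PAM 2 or any 1 vehicle library (up to 0.101). Tnc, tenascin C, rose by 0.61 ± 0.19 (edgeR adjusted p = 0.0311), a call lost without PAM 1 or vehicle 2, 3 or 4 (up to 0.131). Spock1, a testican of neurons, fell by 0.59 ± 0.20 (edgeR adjusted p = 0.0433), a call lost without PAM 1, PAM 3 or vehicle 2, 3 or 4, with upper-quartile scaling (0.0556) and without PAM 3 and PAM 4 together (0.0503), with a range of 0.0197 to 0.135 over the 17 alternatives.

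Elastic fibre and microfibril genes had 3 of 10 tested members higher and none lower, against 9.00% and 9.89% of all tested genes, with a median of 0.46. Without 1 library 0 to 5 were higher. They were Mfap2 (log2 0.71 ± 0.20, edgeR adjusted p = 0.0190), Ltbp3 (0.40 ± 0.12, 0.0288) and Efemp2 (0.53 ± 0.17, 0.0328). Each lost its call in some fits without 1 library: Mfap2 without vehicle 1, 2 or 4 (up to 0.0810), Ltbp3 without PAM 1 or 3 or vehicle 2 or 3 (up to 0.114), Efemp2 without PAM 1 or 4 or vehicle 2, 3 or 4 (up to 0.118). Efemp2 also lost it with the length trend removed (0.0550). Of 5 tested small leucine-rich proteoglycans, which coat collagen fibrils, only Prelp passed, again against 9.00% and 9.89% of all tested genes. Prelp was at 58.5 ± 11.4 CPM in PAM libraries and 36.4 ± 2.45 CPM in vehicle libraries (SD, n = 4 each; log2 0.69 ± 0.16 SE, edgeR adjusted p = 0.00465).

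On the cell side, 5 of 20 tested focal adhesion genes rose and 1 fell, against 9.00% and 9.89% of all tested genes, with a median of 0.13. Without 1 library 3 to 7 rose and 1 fell, and Ilk and Kank1 lost their calls in 4 and 6 of these 8 fits (edgeR adjusted p up to 0.103 and 0.139). Ptk2b, the calcium-activated kinase Pyk2 of excitatory neurons, was at 92.0, 81.7, 94.5 and 95.2 CPM in PAM 1 to 4 and at 168, 190, 205 and 188 CPM in vehicle 1 to 4. It fell by 1.05 ± 0.11 on the log2 scale (edgeR adjusted p = 5.08e-06), with no overlap between groups. The adaptors Parvb (log2 0.79 ± 0.14, edgeR adjusted p = 0.000434), Lims2 (1.45 ± 0.28, 0.00119) and Tns3 (0.88 ± 0.17, 0.00124) rose, each with every PAM library above every vehicle library. In the dystroglycan and agrin list, 1 of 13 tested genes rose and 1 fell, again against 9.00% and 9.89% of all tested genes. Sgcb, a sarcoglycan, rose by 0.50 ± 0.13 (edgeR adjusted p = 0.0120), a call lost without vehicle 4 (0.0624, range 0.000456 to 0.0624 over the 17 alternatives). Of 15 tested genes of heparan sulfate synthesis and trimming only Sulf1, an extracellular sulfatase, passed, against 9.00% and 9.89% of all tested genes. Sulf1 was at 12.9 ± 6.12 CPM in PAM libraries and 3.64 ± 2.17 CPM in vehicle libraries (SD, n = 4 each; log2 1.83 ± 0.44 SE, edgeR adjusted p = 0.00689).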

How the data were processed

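The authors deposited whole-number counts per gene, 1 file per library, in featureCounts layout with Ensembl identifiers and exon coordinates, per the file headers. Per the submitters' processing notes, the genome build was Rnor_6.0 and the tools included STAR and featureCounts. The sources used here do not give annotation release, strandedness or the handling of multi-mapped reads. The authors' deposited comparison table holds group means (signal, normalised counts), log2 fold changes and p-values, per the file headers; it supplied gene symbols and 2 quoted adjusted p-values. Hspg2, also in the symbol pattern, was not analysed here.

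Libraries held 2960406 to 4389430 counts. The tests used edgeR 4.0.16 in R 4.3.3: filterByExpr, TMM, robust quasi-likelihood F test, group as the only term, Benjamini-Hochberg adjustment over 11740 genes, threshold 0.05. An SE is a log2 fold change divided by the root of its F value, and the biological coefficient of variation was 17.7%. Alternatives were DESeq2 1.42.0, limma-voom 3.58.1, RLE and upper-quartile scaling, no filter, a mean of at least 1 CPM, the replicate block, removal of each library's length trend (loess, span 0.5), PAM 3 and PAM 4 left out, and each library left out. The procedure was also run on simulated data that gave every gene the same biological coefficient of variation in both groups. That run cannot show how the procedure handles a spread that differs between the groups.

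The members, gene lists and alternatives were chosen with earlier results of these data known. Named members are those past the test, the 2 highest of each role per kilobase, and Fn1, Itgb1, Col1a1, Col4a1, Lamc1, Thbs1, Sdc2 and Gpc4, with up to 4 genes of each further list by smallest adjusted p. Other members named (among them Col8a1, Col5a1, Col6a3, Gpc3, Itgb2 and Itgbl1) were chosen after their values were seen. A gene of the further lists is not reported here.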

Additional observations from a re-analysis of the deposited data

Results flagged for a closer look

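Of 84 groups of 4 libraries examined, 2 held a library far from the other 3, and chance flags about 1 in 20 such groups. In Lamb2, PAM 1 (128 CPM) stood above the other PAM libraries (80.4 to 87.6 CPM), with a gap of 0.849 of the group's range. In Lamc1, PAM 4 (19.5 CPM) stood below the other PAM libraries (37.5 to 39.9 CPM), with a gap of 0.884 of the range.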

How the results depend on the processing

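Of 60 tested members 17 rose and 4 fell; over the alternatives other than leaving out 1 library, 17 to 20 rose and 3 to 5 fell, and without 1 library 12 to 18 rose and 3 to 4 fell. Without 1 library, 713 to 1148 of all tested genes rose and 796 to 1269 fell, against 1057 and 1161 with all libraries. Among all genes, 8.42% were called higher and 9.09% lower in DESeq2, and 6.50% and 6.49% without the filter. Over the tested members, the middle log2 fold change was 0.31 with all libraries, 0.42 with the length trend removed, 0.45 without PAM 3 and PAM 4, and 0.26 to 0.44 without 1 library. In the 7 further lists 18 genes rose and 6 fell, against 9.00% and 9.89% of all tested genes. The number tested in each list is given above. Without PAM 3 and PAM 4 the counts in these lists were 30 and 3, while 1374 of all tested genes rose and 1526 fell. Without 1 library the counts in these lists were 9 to 26 and 3 to 7. The cause was not tested. Of 646 values of named members, 591 kept direction and side of the threshold, 32 lost the call, 5 gained it and 18, of 7 members and none past the test in either fit, changed sign. Without PAM 3 and PAM 4 these were Col16a1 (-0.12), Col20a1 (-0.12) and Nid1 (0.11); with limma-voom Col20a1 (-0.0028) and Lama4 (0.10); with the replicate block Gpc4 (-0.012) and Lama4 (0.022); with the length trend removed Fn1 (0.047). Without 1 library the range was -0.021 to 0.15 for Col16a1, -0.073 to 0.26 for Col20a1, -0.10 to 0.27 for Gpc4, -0.37 to 0.53 for Lama4 and -0.083 to 0.092 for Lama5. With the replicate block 17 members rose and 4 fell. Over all tested genes no pairing of the libraries by number was seen: deviations correlated by 0.0516, -0.0454, 0.0676 and -0.0595, and 2 of 4 PAM libraries correlated best with their own number. Such correlations cannot show a pairing that touches few genes. Leaving out the 4 genes that are no matrix or receptor chains, an alternative chosen after seeing the data, gave 17 higher and 3 lower. Depth limits the 24 members below the filter.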

Other observations

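PAM 4 was the lowest PAM library in 27 of the 60 tested members (45%), against 33.8% of all tested genes. It was the lowest of all 8 libraries in 11 members (18.3%), against 22.6% of all tested genes. The slope of its log2 level with exonic length was -0.132 per doubling of length and that of PAM 3 was -0.0853, while the other libraries lay between 0.00524 and 0.0627. Tested members had a median exonic length of 4803 bases, against 2457 over all tested genes.

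Libraries 1 and 3 were above libraries 2 and 4 within both the PAM and the vehicle group in 6 of the 60 tested members (10%), which were Col1a1, Col3a1, Col4a2, Col6a2, Fbln1 and Gpc4. Among all tested genes 271 showed this order (2.31%). It was the only order counted, and it is the order that the Col1a1 and Col3a1 values given above show. The share in members beside that of all tested genes is therefore no test. What a library's number marks is not given in the sources used here.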
